A study of Cricetulus griseus with 19 samples.

Results

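The 200 most abundant predicted noncoding transcripts of a Chinese hamster cell line are described here across 19 RNA-seq libraries. They were taken from the transcript targets whose identifier begins with XR_, the RefSeq prefix for noncoding transcripts predicted by computation. The deposited TPM value (the estimated count divided by effective length, scaled to the same total in every library) were averaged over all 19 libraries, and the 200 highest were kept, out of 8174 XR_ targets and 46718 targets in all. The measured abundance chose these transcripts, so their high levels and their order are a description and not a result. The libraries were made from polyadenylated RNA of the Paradaux line, labelled as CHO-K1, an ovary-derived line of the Chinese hamster that is grown in culture. There was 1 library of the parental line, without replicates, and there were 4 libraries of long-term cultures labelled uncontrolled growth, 7 labelled negative feedback and 7 labelled paradoxical feedback. Negative and paradoxical feedback name culture conditions of a line with a synthetic population-control circuit, and the labels give no agent or dose for them. Cells of every condition were harvested after 2 days in culture at under 80% confluence, and all 19 libraries held reads of the inserted construct, the parental one included. The labels do not say whether numbered cultures were kept apart throughout, so each p-value reflects only how far the samples differ, and some of that may be technical.

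Long noncoding RNAs are transcripts without a long open reading frame. They include scaffolds of nuclear bodies, antisense and enhancer-derived RNAs, and the host transcripts of small nucleolar RNAs. The XR_ class of RefSeq also takes in noncoding splice variants of protein-coding genes and transcribed pseudogenes, so the prefix alone does not say which of these a transcript is. None of the 8174 XR_ identifiers matched the available gene table, with or without the version number, and the files pair them with no symbol. The transcripts are therefore given by identifier, without a gene name, a role or a position, and the class label rests on the prefix alone. Of the fixed lists of nuclear long noncoding RNAs, small nucleolar RNA host genes and structural small RNAs, no member could be looked up among them.

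The 200 transcripts were 303 to 8171 nt long, with a median of 903.5 nt against 1134.5 nt for the other XR_ targets and 2395 nt for the predicted messenger RNAs (prefix XM_). By length, 89 were under 800 nt, 79 were 800 nt or longer but under 2000 nt, and 32 were 2000 nt or longer. TPM favours short targets: 15 of the 200 had an effective length under 100 nt, and their mean CPM (scaled to library size but not divided by length) were only 0.651 to 24.4. Effective lengths were the same in all 19 libraries, so they do not follow any difference in fragment length between them. XR_003479329.1, of 303 nt and an effective length of 25.8 nt, was 17th by mean TPM at a mean CPM of 4.12. Over the 200, mean CPM ran from 0.651 to 2294 with a median of 24.8. XR_484179.3, the 12th by mean TPM, was 140th by mean CPM, and XR_003478697.1, of 6214 nt and 18th by mean TPM, was the third by mean CPM. Estimated counts were whole numbers in every library, within 1e-06, for 68 of the 200 (34.0%), against 30.4% of the 5452 XR_ targets with a count in any library. For the other 132 the software divided reads among similar targets, and the files do not show the uncertainty of that division.

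Measured in TPM, which favours short targets, abundance within the class was concentrated. XR_482958.3, of 485 nt, averaged 13363 TPM and held 33.8% of the TPM of all XR_ targets. The 2 most abundant held 44.4%, the 10 most abundant 57.6% and the 50 most abundant 71.6%. All 200 together held 83.4% of the class, which is 3.29% of the TPM of all targets. By counts, which are not divided by length, XR_482958.3 took a smaller part. It held 0.0846 to 0.405% of the counts of a library, where all XR_ targets held 1.53 to 3.52%. Of the counts of the 200 it held 9.56 to 21.0%. The end of the ranking was flat: the last 2 inside the list (XR_003491421.1 and XR_003490555.1) averaged 17.1 and 17.0 TPM, and the next 2 targets, XR_001722270.2 and XR_001723044.2, averaged 17.0 and 16.9 TPM. Of all XR_ targets, 2722 had no count in any library.

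Library totals were 9.91 to 13.2 M estimated counts. Negative feedback cultures 3 to 7 stood apart from negative feedback cultures 1 and 2 in many of the values below. No label separates these parts. The split was read from these same libraries, so results that leave out either part are descriptions. The same libraries differed in the length of the transcripts that took their reads: targets under 800 nt held 12.2 to 13.4% of counts under uncontrolled growth, 14.1 and 13.3% in the first pair of negative feedback cultures, 6.12 to 7.22% in the remaining 5, 8.5 to 12.4% in paradoxical feedback cultures and 11.8% in the parental library. Results by length and with this share as a covariate are given below, but the design does not fully separate the share from the conditions. In bulk RNA, fewer cells that express a transcript and less of it per cell cannot be told apart, and every share or CPM is relative to the rest of its library.

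XR_ targets as a class held a smaller share of counts under paradoxical feedback than under uncontrolled growth, by 1.21 percentage points. The 4 uncontrolled cultures had 3.21, 3.52, 3.27 and 3.42% of their counts on XR_ targets, a mean of 3.35 ± 0.139% (SD, n = 4). The 7 paradoxical cultures had 2.12, 2.05, 1.92, 2.5, 2.11, 2.04 and 2.24%, a mean of 2.14 ± 0.187% (SD, n = 7). Every paradoxical culture lay below every uncontrolled one, and the difference of -1.21 points had an exact permutation p of 0.00606, the smallest that 4 against 7 allows (two-sided; adjusted p = 0.0182 over 6 tests). The share of TPM fell as well, from 5.01 ± 0.273% to 3.68 ± 0.313% (exact permutation test, adjusted p = 0.0182, n = 4 and 7). Without uncontrolled culture 2, 3 or 4 the adjusted p for counts was 0.05, at the threshold and not under it, while the smallest unadjusted exact p for 3 against 7 is 0.0167.

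The negative feedback cultures split. Cultures 1 and 2 had 3.26 and 3.25% of counts on XR_ targets, within the uncontrolled range, and cultures 3 to 7 had 1.53 to 1.68%, below every other library. The mean over all 7 was 2.08 ± 0.803% (SD, n = 7), which was 1.27 points below uncontrolled growth (difference -1.27, exact two-sided permutation p = 0.0242, adjusted p = 0.0485), with overlapping groups. In TPM the same comparison missed the threshold, at 3.57 ± 1.07% under negative feedback (exact permutation test, adjusted p = 0.0909, n = 4 and 7). Without cultures 3 to 7 the difference in counts was -0.0987 points (exact permutation test, adjusted p = 0.640). With 2 against 4 libraries that test cannot reach the threshold at any difference. Its p-value therefore says nothing about what the call rested on. The call was lost without any 1 of uncontrolled cultures 2 to 4 or of negative feedback cultures 3 to 7, with a highest adjusted p of 0.133 (exact permutation test). Without negative cultures 1 and 2 the difference was -1.74 points, a description, since the split was read from these same values. Between paradoxical and negative feedback the share differed by 0.0567 points, less than the spread between replicates (exact permutation test, adjusted p = 0.840, n = 7 and 7). That comparison also turned on the split: without negative cultures 1 and 2 the paradoxical mean was higher by 0.526 points, again a description only. The parental library, at 2.59%, lay between the uncontrolled and the paradoxical cultures.

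**Figure D1:**
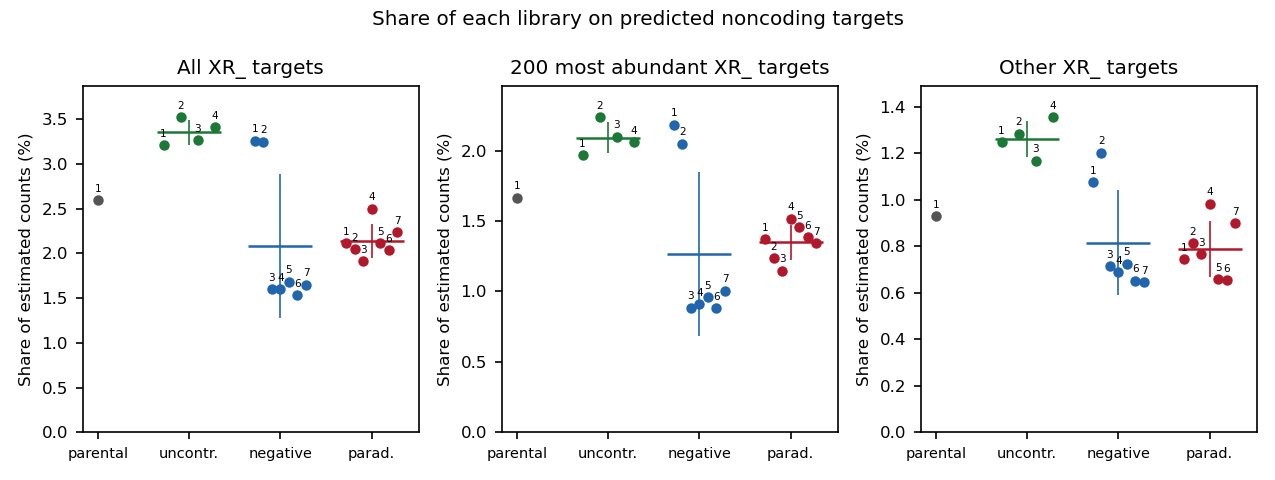
Share of estimated counts in percent on all XR_ targets, on the 200 most abundant and on the other XR_ targets, by condition; numbered points are libraries, horizontal lines group means and vertical lines SD. For all XR_ targets the 4 uncontrolled cultures sit at 3.21 to 3.52%, all above the 7 paradoxical cultures, while the negative feedback cultures lie at 3.26 and 3.25% or at 1.53 to 1.68%.

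The 200 transcripts carried 55.3 to 68.8% of the XR_ counts of a library. They held 1.97 to 2.23% of all counts under uncontrolled growth, 2.18 and 2.05% in the first pair of negative feedback cultures, 0.881 to 1% in the remaining 5, 1.15 to 1.52% in paradoxical cultures and 1.66% in the parental library. These shares are sums over transcripts chosen by abundance and were not tested. The remaining XR_ targets held 1.17 to 1.35% in uncontrolled, 1.08 and 1.2% in the first pair of negative feedback cultures, 0.645 to 0.726% in negative cultures 3 to 7 and 0.655 to 0.985% in paradoxical cultures. When all 200 were taken out of the class, its share under paradoxical feedback was still 0.475 points below uncontrolled growth (difference -0.475, exact permutation test, adjusted p = 0.0182). Those of the 200 with 800 nt or more held 1.37 to 1.51% of counts in uncontrolled, 0.818 to 1.09% in paradoxical and 0.674 to 0.757% in negative feedback cultures 3 to 7. Counted only over targets of 800 nt or more, so that the total too leaves out shorter targets, the XR_ share differed by -1.12 points between paradoxical and uncontrolled cultures (exact permutation test, adjusted p = 0.0121).

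Transcript by transcript, negative feedback cultures 3 to 7 were all below cultures 1 and 2 of the same condition for 145 of the 200 (72.5%). The share was 28% of all 28555 targets that passed the filter on low counts and 39.7% of the other XR_ targets. Cultures 3 to 7 were all above cultures 1 and 2 for 27 (13.5%, against 27.2% of all targets and 7.99% of other XR_ targets). They were below all 4 uncontrolled cultures for 124 of the 200 (62.0%, against 22.4% and 32.0%) and above all 4 for 25 (12.5%, against 23.1% and 5.57%). Within a condition the standard deviation of log2(CPM + 0.5) had a median over the 200 of 0.28 in uncontrolled, 0.42 in paradoxical and 0.69 in negative feedback cultures, and of 0.24 within negative cultures 3 to 7 alone. In the same order the medians were 0.36, 0.54, 0.76 and 0.35 for XM_ targets. They were 0.41, 0.52, 0.63 and 0.37 for other XR_ targets, so this order was not particular to the 200. The parental library lay inside the range of the 18 long-term cultures for all but 1 of the 200. The exception was XR_482452.3, at 37.1 CPM against a highest value of 31.7 CPM in the other libraries. Over all targets the parental library was above all 18 for 2.16% and below them for 1.27%. It was below all 4 uncontrolled cultures for 74 of the 200 (37%, against 20.4% of all targets and 30.1% of other XR_ targets). It was above all 4 for 34 (17%, against 23.1% and 10.3%).

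**Figure D2:**
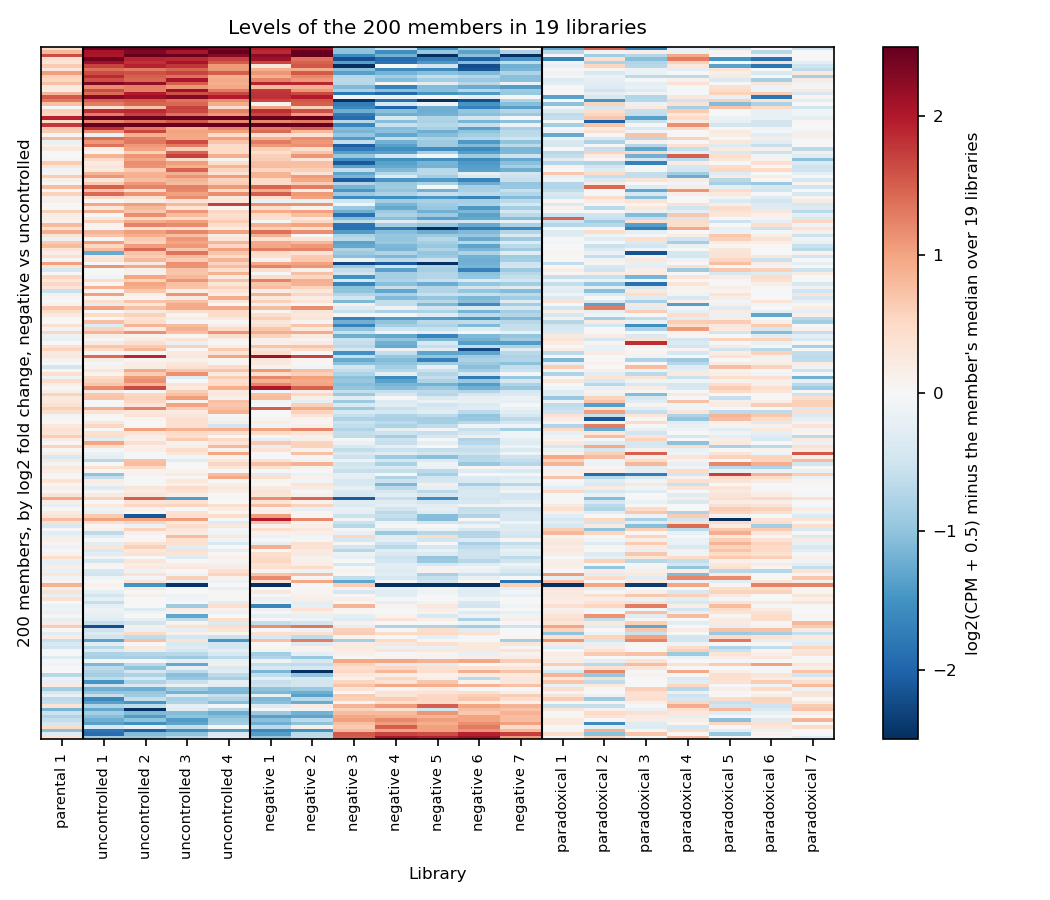
Log2(CPM + 0.5) of the 200 transcripts minus each transcript's median over the 19 libraries (color scale), with the transcripts in rows, ordered by log2 fold change of negative feedback against uncontrolled growth, and the libraries in columns by condition. Negative feedback cultures 3 to 7 are below cultures 1 and 2 in 145 rows and above them in 27.

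XR_482958.3, the most abundant of the class and one with whole counts, stood at 2743 CPM in the parental library and at 2732, 3406, 3087 and 3218 CPM in uncontrolled cultures. It was at 4096 and 3353 CPM in negative feedback cultures 1 and 2, at 836 to 1243 CPM in negative cultures 3 to 7, and at 2973, 1478, 1730.4, 2207, 3120.0, 2699.7 and 1661 CPM in paradoxical cultures 1 to 7. Cultures 3 to 7 of negative feedback were the 5 lowest libraries for it, and the paradoxical cultures spread from 1478 to 3120.0 CPM, overlapping the uncontrolled ones. Its log2 fold change was -0.80 ± 0.40 (SE) for negative against uncontrolled (edgeR quasi-likelihood test with Benjamini-Hochberg adjustment over all targets, adjusted p = 0.18) and -0.46 ± 0.40 (SE) for paradoxical against uncontrolled (edgeR, adjusted p = 0.511), and neither passed.

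XR_003478734.1, the second in rank (800 nt, counts shared with other targets), had a narrower range of 1515 to 1863 CPM in uncontrolled, 1356 to 2184 CPM in negative feedback and 1364 to 2661 CPM in paradoxical cultures. Its log2 fold changes against uncontrolled growth were -0.05 ± 0.17 (SE) under negative and 0.25 ± 0.17 (SE) under paradoxical feedback, and neither passed (edgeR, adjusted p = 0.848 and 0.374). Its CPM was above that of XR_482958.3 in 8 libraries, negative feedback cultures 3 to 7 and paradoxical cultures 2, 3 and 7.

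XR_483650.1, the sixth in rank (751 nt, whole counts), was several-fold lower in every paradoxical culture than in uncontrolled cultures. Its CPM was 488, 706, 484 and 576 under uncontrolled growth and 609 and 775 in negative feedback cultures 1 and 2, against 23.1 to 65.7 in negative cultures 3 to 7 and 40.1, 119, 70.9, 160.5, 52.6, 52.4 and 72.7 in paradoxical cultures 1 to 7. The parental library, at 249 CPM, lay between. Every paradoxical culture was below every uncontrolled one, and the log2 fold change was -2.80 ± 0.80 (SE) (edgeR, adjusted p = 0.0473), a call that held under 13 of 28 alternative settings. Against uncontrolled growth the negative feedback group, with both of its levels together, gave -1.29 ± 0.80 (SE) (edgeR, adjusted p = 0.271) and did not pass.

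XR_003492109.1, the fourth (529 nt), was the other of the 10 most abundant to pass a test. It was at 235, 289.7, 217 and 286 CPM in uncontrolled cultures and at 102, 131, 132, 140.1, 93.3, 61.5 and 86.9 CPM in paradoxical cultures, without overlap, a log2 fold change of -1.27 ± 0.28 (SE) (edgeR, adjusted p = 0.0184). Negative feedback cultures had 244 and 251 CPM (1 and 2) and 89 to 126 CPM (3 to 7), and that comparison did not pass (edgeR, adjusted p = 0.083).

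The remaining 6 of the 10 most abundant passed in no comparison. XR_478316.3 and XR_482358.3 had the level split of the negative feedback group, at 252 and 203 CPM against 54.2 to 67 CPM for the first and 341 and 235 CPM against 36.3 to 44.1 CPM for the second. XR_480346.2 had the same split at a smaller size, with 190.0 and 129 CPM against 62.3 to 75.9 CPM. XR_478422.3 and XR_481135.2 were, of these 6, the ones in which paradoxical cultures spread over the largest ratio, from 51.7 to 390.3 CPM and from 177 to 569 CPM, against 214 to 299 and 348 to 532 CPM in uncontrolled cultures. Paradoxical cultures 2 and 4 were the lowest of that group for both. XR_478305.2 was at 188 to 306 CPM in uncontrolled, 132 to 455 CPM in negative feedback and 168 to 469 CPM in paradoxical cultures, with the 3 ranges overlapping.

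**Figure D3:**
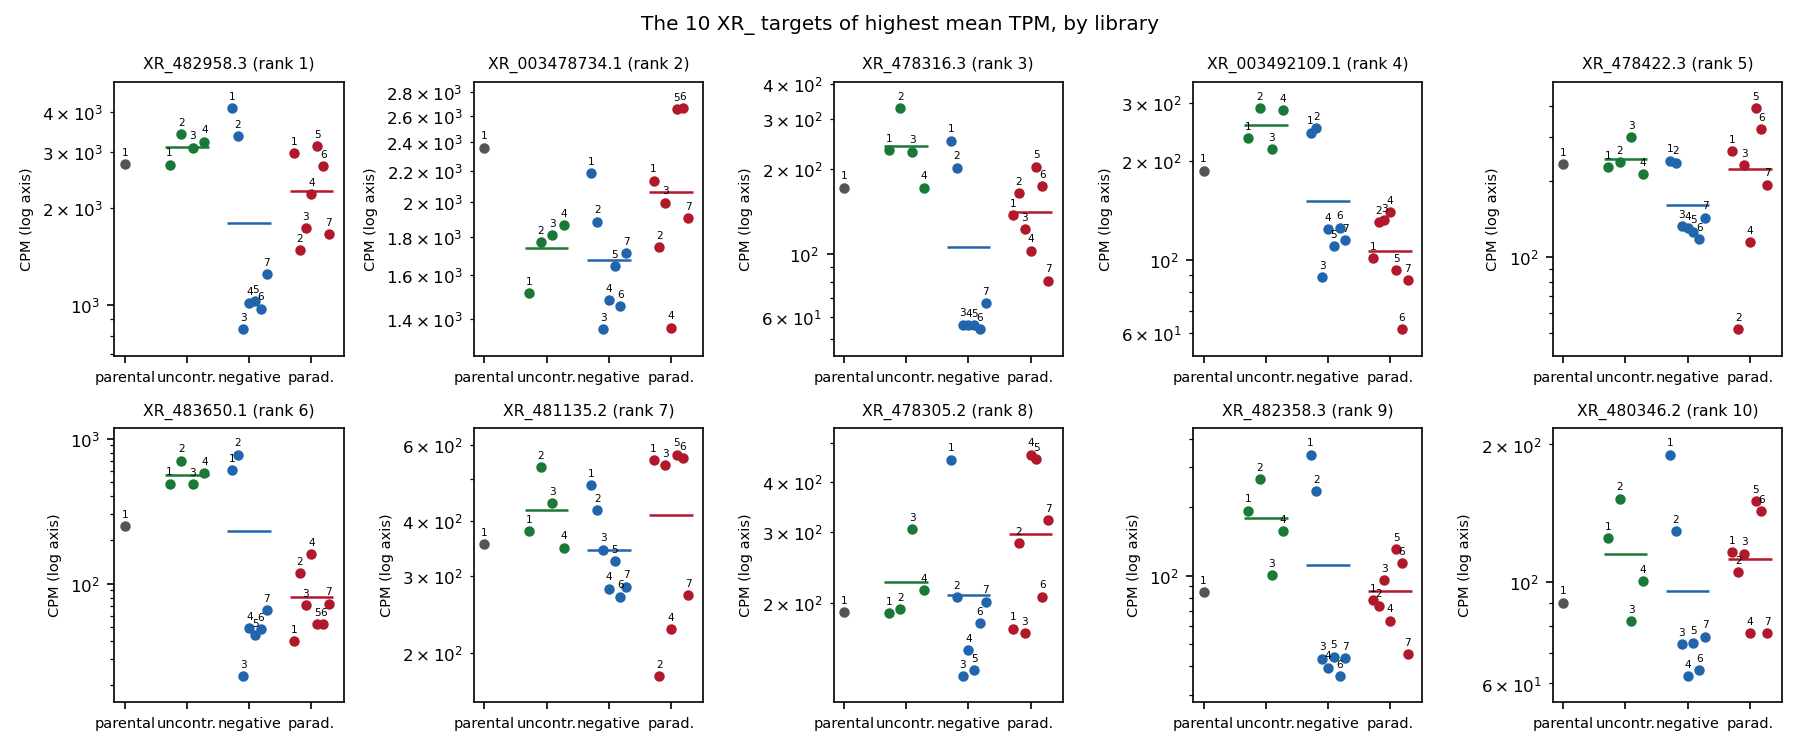
CPM on a log axis of the 10 most abundant transcripts in each of the 19 libraries, by condition, with a numbered point per library and a line at each group mean. In the panels of XR_483650.1 and XR_003492109.1 every paradoxical culture is below every uncontrolled culture.

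Paradoxical feedback was then compared with uncontrolled growth over all tested targets, where 6.43% passed the threshold of adjusted p under 0.05 and count as called, 4.93% as higher and 1.5% as lower. Of the 200, 14 were called (7.00%), 7 higher (3.50%) and 7 lower (3.50%). That total is near the background in this test, but neither the total nor the even split held elsewhere. DESeq2 called 19 higher and 35 lower, against 3043 higher and 1719 lower over all targets (16.7% called). With limma-voom the calls were 5 and 34, against 1082 and 1507 over all targets (9.07%). A fit of only the compared groups called 18 and 56, against 2869 and 2087 over all targets (22.4%). The median log2 fold change of the 200 was -0.38, against 0.02 for all targets and -0.58 for the other XR_ targets. Of the 200, 136 (68.0%) were below 0, against 47.3% of all targets and 69.2% of other XR_ targets. CPM did not overlap between the groups for 45 lower transcripts (22.5%, against 8.35% of all targets and 14.9% of other XR_ targets) and for 12 higher ones (6.00%, against 8.15% and 1.17%). Single libraries changed the count: without any 1 of uncontrolled cultures 1, 2, 3 or 4, calls among the 200 came to 1, 1, 4 and 2, where 0.448, 0.528, 2.26 and 1.92% of all targets were called. They came to 36 without negative feedback culture 1 (16 higher and 20 lower, against 2338 and 866 over all targets, 11.3% called). They came to 29 without culture 2 (12 higher and 17 lower, against 2140 and 826 over all targets, 10.4%). Both cultures enter the fit through the shared estimate of spread. Calls among the 200 also came to 7 without paradoxical culture 1, 8 without 3, 9 without 5, 7 without 6 and 8 without 7, where 3.88, 3.53, 4.36, 3.57 and 4.55% of all targets were called.

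The transcripts that fell under paradoxical feedback included XR_480099.3 (1887 nt), the call that held under the most alternative settings, 27 of 28. It was at 185, 172, 188 and 151 CPM in uncontrolled cultures and at 14.7, 28.5, 22.6, 46, 33.4, 10.5 and 39.9 CPM in paradoxical ones, a log2 fold change of -2.64 ± 0.48 (SE) (edgeR, adjusted p = 0.0115). Negative feedback cultures 1 and 2 had 137 and 152 CPM and cultures 3 to 7 had 32.5 to 37.9 CPM. XR_003489756.1 fell from 162 to 201 CPM to 9.79 to 41.7 CPM, a log2 fold change of -2.83 ± 0.76 (SE) (edgeR, adjusted p = 0.0362). XR_478446.1 had the largest fall of those named, -3.39 ± 0.92 (SE), from 27.4, 32.7, 27 and 142 CPM to 3.63 to 6.98 CPM (edgeR, adjusted p = 0.0376), and uncontrolled culture 4 was far above the other 3. Without that culture its log2 fold change was -2.41 and the call was lost (edgeR, adjusted p = 0.139). XR_001726830.2 and XR_003491721.1 fell by smaller amounts, -1.73 ± 0.44 (SE) and -1.87 ± 0.51 (SE) (edgeR, adjusted p = 0.0287 and 0.0386), and no paradoxical culture overlapped the uncontrolled ones in either. For all 5 of these, negative feedback cultures 3 to 7 lay below negative cultures 1 and 2.

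Among the transcripts that rose under paradoxical feedback, XR_003491989.1 was at 4.44, 3.69, 5.45 and 6 CPM in uncontrolled cultures and at 17.4, 31.8, 17.4, 23.4, 13.6, 14.9 and 16.7 CPM in paradoxical ones, without overlap, a log2 fold change of 1.98 ± 0.51 (SE) (edgeR, adjusted p = 0.0315). XR_483834.2 and XR_483225.2 rose with no overlap, from 39.7 to 49.7 CPM to 57.5 to 140.0 CPM and from 42.8 to 50.5 CPM to 86.8 to 129.8 CPM. Their log2 fold changes were 1.29 ± 0.28 (SE) and 1.18 ± 0.28 (SE) (edgeR, adjusted p = 0.018 and 0.0237). XR_478328.3 rose by 0.96 ± 0.21 (SE) on the log2 scale (edgeR, adjusted p = 0.0185), and paradoxical culture 4, at 39.7 CPM, lay inside the uncontrolled range. XR_003479329.1 rose by 1.53 ± 0.44 (SE) (edgeR, adjusted p = 0.0472) at low levels of 1.33 to 2.53 CPM and 2.94 to 6.9 CPM, and that call held under 7 of 28 alternatives.

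**Figure D4:**
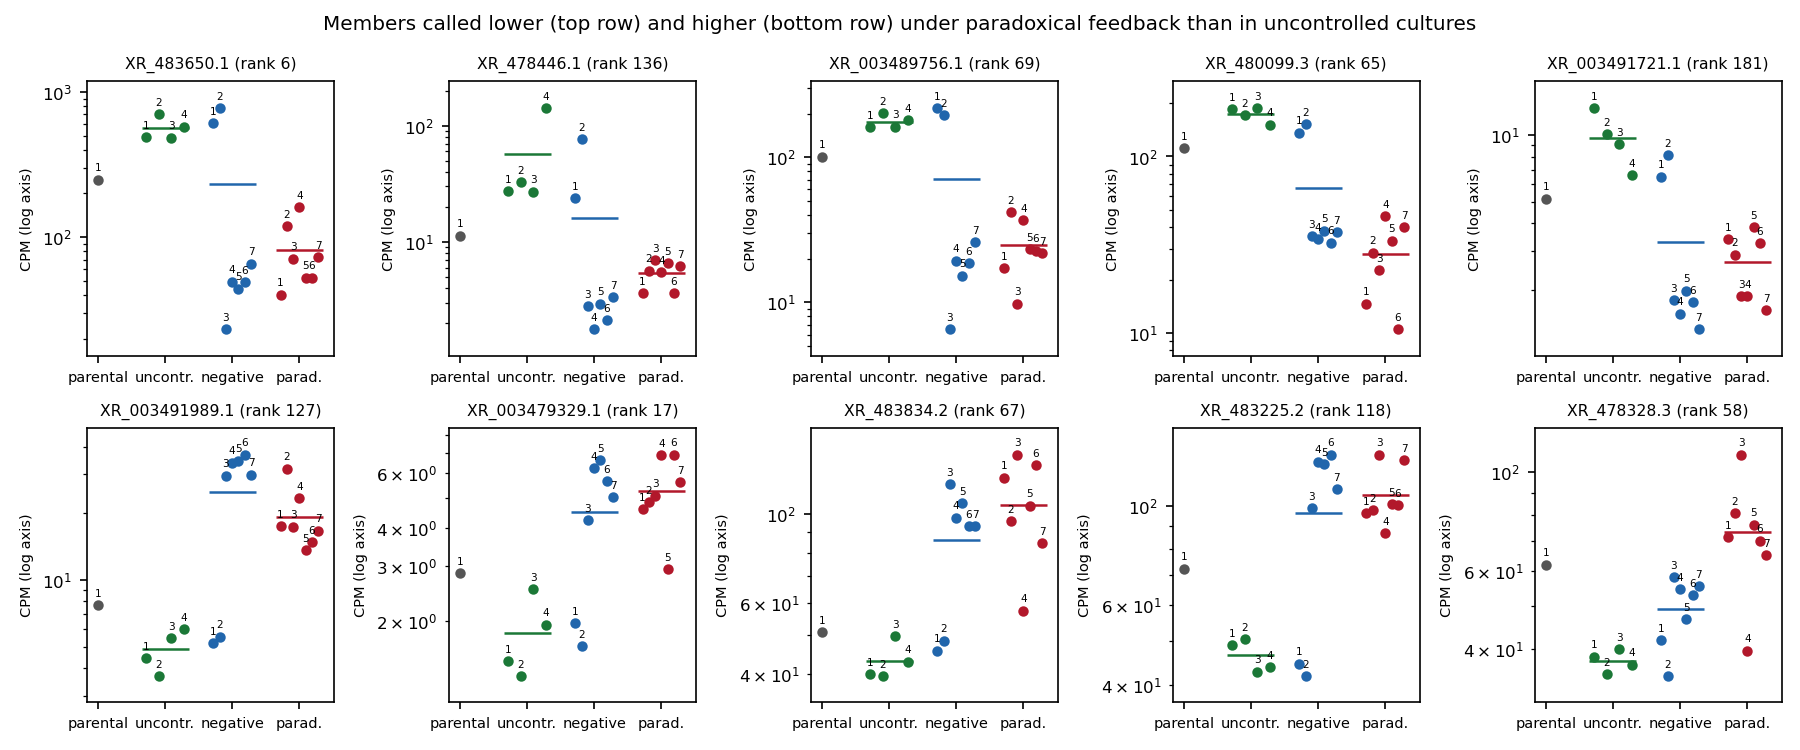
CPM on a log axis, by library (numbered points) and condition, with a line at each group mean, of 5 transcripts called lower (top row) and 5 called higher (bottom row) under paradoxical feedback than under uncontrolled growth. Negative feedback cultures 3 to 7 lie below cultures 1 and 2 in every panel of the top row and above them in every panel of the bottom row.

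Under negative feedback 17 of the 200 (8.5%) were called against uncontrolled growth, 12 higher (6.00%) and 5 lower (2.5%), where 9.76% of all targets were called, 8.65% higher and 1.11% lower. The median log2 fold change of the 200 was -0.68, against 0.04 for all targets and -0.62 for the other XR_ targets. Of the 200, 158 (79.0%) were below 0, against 48.2% of all targets and 70.0% of other XR_ targets. The higher calls outnumbered the lower ones in this test although the median was below 0, and the split depended on the test. DESeq2 called 24 higher and 39 lower, against 4866 higher and 1558 lower over all targets (22.5% called). With limma-voom 4 were called higher and 75 lower, against 1637 higher and 3402 lower over all targets (17.6%). CPM did not overlap for 1 higher transcript (0.5%, against 1.72% of all targets and 0.424% of other XR_ targets) and 7 lower ones (3.50%, against 2.23% and 4.99%). The count of calls depended on single libraries: it was 0 without any 1 of the 4 uncontrolled cultures (61 to 84 of the 200 at an unadjusted p under 0.05), 91 without negative culture 1 (20 higher and 71 lower), 81 without culture 2 (21 higher and 60 lower), and 4, 2, 4, 4 and 5 without cultures 3 to 7 in turn. The share of all targets called moved with it, to at most 0.0527% without an uncontrolled culture, to 24.4% and 22.3% without negative cultures 1 and 2, and to 4.42, 3.4, 3.88, 4.11 and 5.19% without cultures 3 to 7. With cultures 3 to 7 all left out none of the 200 was called, none had an unadjusted p under 0.05, and the median was 0.02, where 0.0476% of all targets were called. With cultures 1 and 2 left out 147 were called, 25 higher and 122 lower, and the median was -1.12. Over all targets that fit called 40.4%, 5844 higher and 5616 lower. Scaled by library size alone, 10 were called higher and 9 lower, where 7.95% of all targets were called, 1901 higher and 369 lower.

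The highest calls under negative feedback were transcripts at low levels in uncontrolled cultures. XR_001721795.1 was at 0.474 to 1.01 CPM in uncontrolled cultures, 0.446 and 0.681 CPM in negative feedback cultures 1 and 2 and 3.37 to 7.42 CPM in cultures 3 to 7, a log2 fold change of 2.70 ± 0.72 (SE) (edgeR, adjusted p = 0.0295). XR_478442.3 was at 0.935 to 3.64, 1.57 and 2.88 and 15.2 to 20 CPM in the same order, a log2 fold change of 2.56 ± 0.67 (SE) (edgeR, adjusted p = 0.0289). XR_003491989.1, which rose under paradoxical feedback too, had 5.17 and 5.54 CPM in the first pair of negative feedback cultures against 29.6 to 36.8 CPM in the remaining 5, a log2 fold change of 2.35 ± 0.52 (SE) (edgeR, adjusted p = 0.0236). XR_478465.3 and XR_478397.3 rose by 2.10 ± 0.56 (SE) and 2.00 ± 0.49 (SE) on the log2 scale (edgeR, adjusted p = 0.0307 and 0.025). In each of these 5, cultures 1 and 2 were near the uncontrolled level and cultures 3 to 7 were above every uncontrolled culture.

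The 5 transcripts that fell under negative feedback were XR_001726830.2, XR_484179.3, XR_001723493.2, XR_003491421.1 and XR_484027.3. XR_001726830.2 was at 275, 245, 374 and 175 CPM in uncontrolled cultures, 215 and 193 CPM in negative feedback cultures 1 and 2 and 42.4 to 57.3 CPM in cultures 3 to 7, a log2 fold change of -1.53 ± 0.44 (SE) (edgeR, adjusted p = 0.0367). XR_484179.3, of 387 nt, was at 40.8 to 49.7 CPM in uncontrolled and 6.09 (lowest), 9.32 (median) and 38.5 (highest) CPM in negative feedback cultures, without overlap (-1.47 ± 0.44 (SE), edgeR adjusted p = 0.0466). XR_001723493.2 was among the more abundant, at 548 to 746 CPM in uncontrolled and 152 (lowest), 207 (median) and 556 (highest) CPM in negative feedback cultures, with a log2 fold change of -1.12 ± 0.34 (SE) (edgeR, adjusted p = 0.0492). XR_003491421.1, which sits at the end of the ranking, and XR_484027.3 fell by smaller amounts, -1.01 ± 0.28 (SE) and -0.94 ± 0.29 (SE) (edgeR, adjusted p = 0.0355 and 0.0474). The 5 calls held under 15, 7, 6, 15 and 9 of 28 alternatives in the order named. The comparisons of negative and of paradoxical feedback share the 4 uncontrolled libraries and are not independent of each other.

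Between the feedback conditions 1 of the 200 was called (0.50%), where 0.27% of all targets were called, 0.165% higher and 0.105% lower under paradoxical feedback. It was XR_483626.3 (590 nt, shared counts, the 20th in rank), at 84.3, 73.6, 47.8, 53.7, 64.4, 63.3 and 48.7 CPM in paradoxical cultures and at 20.6 (lowest), 29.5 (median) and 43.5 (highest) CPM in negative feedback cultures. Every paradoxical culture was above every negative feedback culture and above every uncontrolled culture (35.9, 41.7, 40.6 and 45.8 CPM). The log2 fold change against negative feedback was 1.02 ± 0.18 (SE) (edgeR, adjusted p = 0.0419), and against uncontrolled growth it was 0.60 ± 0.22 (SE) and did not pass (edgeR, adjusted p = 0.0977). The call held under 8 of 28 alternative settings, and it was the single non-overlap among the 200 in this comparison, where 0.403% of all targets did not overlap on the higher side and 0.182% on the lower. The median log2 fold change of the 200 was 0.17 against -0.06 for all targets. Without negative feedback cultures 1 and 2 the median was 0.69 with 92 of the 200 called higher and 13 lower. Over all targets that fit called 3046 higher and 2891 lower (20.9%). Without cultures 3 to 7 the median of the 200 was -0.39 with 6 called higher and 39 lower, against 1429 and 1025 over all targets (8.99%).

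Length and class were set beside these differences. For negative feedback against uncontrolled growth the median log2 fold change was -0.73 over those of the 200 under 800 nt and -0.50 over those of 800 nt or more, while all tested targets had medians of -0.50 and 0.08 in the same length classes, and predicted messenger RNAs under 800 nt had -0.44. For paradoxical feedback the medians of the 200 were -0.54 and -0.23, against -0.22 for all targets under 800 nt and -0.09 for predicted messenger RNAs under 800 nt. Under negative feedback the shorter targets thus had the lower median both among the 200 and among all targets. Other XR_ targets had medians of -0.76 (under 800 nt) and -0.60 (800 nt or more) under negative feedback. With the share of counts on targets under 800 nt as a covariate, the medians of the 200 were -0.12 for negative and 0.01 for paradoxical feedback, with 0 calls for negative feedback (edgeR; 7 of the 200 had an unadjusted p under 0.05) and 6 higher and 1 lower for paradoxical feedback, where 0.021% and 4.01% of all targets were called. That share is itself lower in negative feedback cultures 3 to 7 and in most paradoxical cultures (8.5 to 12.4%, against 12.2 to 13.4% under uncontrolled growth). The covariate and the group therefore overlap in this design, for both comparisons. The share also includes the counts of those of the 200 under 800 nt.

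**Figure D5:**
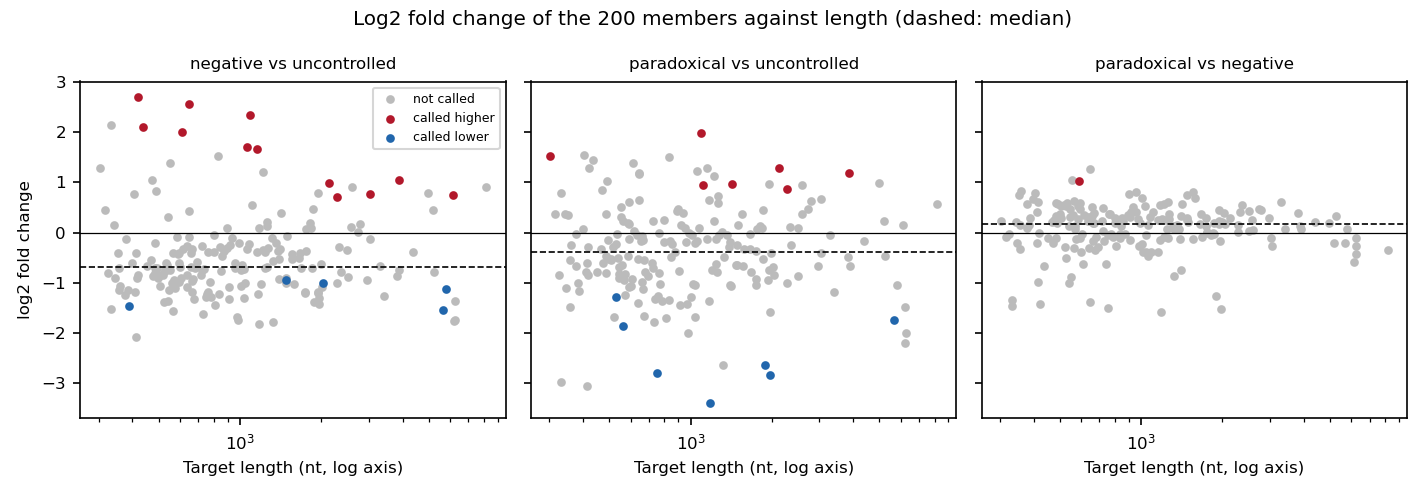
Log2 fold change against transcript length in nt (log axis) for the 200 transcripts in each of the 3 comparisons, colored by whether they were called, with a dashed line at the median of the 200. The medians are -0.68, -0.38 and 0.17 from left to right.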

How the data were processed

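Polyadenylated RNA of 19 libraries was analysed from the transcript quantification files. Trim Galore and kallisto were used by the authors, per the submitters' processing notes, without versions. The build and annotation release of the index are, in the sources used here, not given. Estimated counts deposited by the authors are, per the file headers, reads assigned to each transcript target, and they need not be whole. The TPM values deposited by the authors divide each count by its effective length and scale the sum of a library to a fixed total.

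The 200 transcripts and the lists were chosen with earlier results of these data known. Estimated counts were rounded to whole numbers, filtered with filterByExpr (28555 targets left, all 200 among them) and tested with edgeR 4.0.16 (R 4.3.3) by this model: TMM factors, 1 coefficient per group, quasi-likelihood test, all 19 libraries in one fit, Benjamini-Hochberg adjustment over all tested targets, called at an adjusted p under 0.05. CPM is the estimated count over the TMM-scaled library total. Fold changes are log2 values of this fit. The share of counts on XR_ targets was compared with exact two-sided permutation tests over libraries (scipy 1.17.1), adjusted over 6 tests (shares of counts and of TPM in 3 comparisons). The parental library has no replicate and was described without a test. The closest 2 libraries of the same condition had a chi-square per degree of freedom of 18.8, above sampling noise for whole counts. Only 28.3% of targets with a count had whole counts, and division among similar targets can add to this value. It therefore does not measure how far the cultures differ. Pairs across conditions were not compared in this way.

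Named were the 10 transcripts of highest mean TPM, in each comparison up to 5 called transcripts at either end of the log2 fold changes (mean log2 CPM of at least 1), and the ranks next to the end of the list. Alternatives were DESeq2 1.42.0, limma-voom 3.58.1, other scalings, filters, designs and choices of the 200, and leaving out libraries. The test script was tested on simulated data. For names, a gene table (assembly CriGri-PICRH-1.0) matched 527 of 46718 targets, none of them XR_. Sequences are not printed, and libraries total 9.91 to 13.2 M estimated counts.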

Additional observations from a re-analysis of the deposited data

Results flagged for a closer look

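In 3 of 105 checks of a group for a single distant library among the named transcripts, 1 library lay far from the rest. Chance alone gives about 1 in 20. XR_478305.2 stood at 455.3 CPM in negative feedback culture 1, against 132 to 207 CPM in the other 6 cultures. XR_478446.1 stood at 141.6 CPM in uncontrolled culture 4, against 27 to 32.7 CPM in the other 3. The same transcript stood at 76.34 CPM in negative feedback culture 2, against 1.77 to 23.9 CPM in the other 6.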

How the results depend on the processing

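Of the 200, the numbers called for negative against uncontrolled, paradoxical against uncontrolled and paradoxical against negative were 17, 14 and 1. They became 63, 54 and 8 with DESeq2 (22.5, 16.7 and 6.29% of all targets called) and 79, 39 and 2 with limma-voom (17.6, 9.07 and 1.04%). With only the groups compared in the fit they were 0, 74 and 0 (0.0434, 22.4 and 0%). Where that count is 0, 73 and 23 of the 200 had an unadjusted p under 0.05. With the share of targets under 800 nt as a covariate they were 0, 7 and 5 (0.021, 4.01 and 2.44%). Without negative feedback cultures 3 to 7 they were 0, 73 and 45 (0.0476, 18 and 8.99%). Without cultures 1 and 2 they were 147, 83 and 105 (40.4, 20 and 20.9%). Of the 68 with whole counts, the main fit called 5, 7 and 0. That is 7.35, 10.3 and 0% of them, against 9.76, 6.43 and 0.27% of all targets. For paradoxical against negative the count was 0 with DESeq2 size factors in edgeR, with library size only and without the filter on low counts (0.0385, 0.147 and 0.00542% of all targets called, with 28, 28 and 31 of the 200 at an unadjusted p under 0.05). Leaving out 1 library at a time gave 0 to 91, 1 to 36 and 0 to 5. Other choices of the 200 (median TPM, mean CPM, equal weight per group) shared 185, 124 and 190 transcripts with the list used here. The choice by mean CPM thus changed the list most. In the main fit, where 9.76 and 6.43% of all targets were called, these choices left the first 2 counts within 1.5 times. For negative against uncontrolled the majority of calls turned from higher (12 of 17) to lower with DESeq2 (39 of 63), with limma-voom (75 of 79), and without negative culture 1 (71 of 91), 2 (60 of 81) or both (122 of 147). Of these settings, only limma-voom gave more lower than higher calls over all targets (3402 against 1637). The cause of these moves was not tested.

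The XR_ share for negative against uncontrolled lost its call as a share of TPM (-1.44 points, exact permutation test, adjusted p = 0.0909). It also did so on targets with whole counts only (-0.811, an alternative chosen after seeing the data). Without negative cultures 3 to 7 the difference was -0.0987 points, where 2 against 4 libraries cannot pass this test. Leaving out 1 library gave -1.47 to -1.18 points. For paradoxical against uncontrolled it gave -1.28 to -1.16 points. For paradoxical against negative it gave -0.0348 to 0.253 points around 0.0567, and the sign also turned without the 200 (-0.026) and without negative cultures 3 to 7 (-1.12), while without cultures 1 and 2 the difference was 0.526. Among log2 fold changes of named transcripts for negative against uncontrolled, XR_001721795.1 (-0.21) and XR_483225.2 (-0.10) changed sign without negative cultures 3 to 7. Of 700 values of named transcripts under alternatives, 399 kept their call and direction, 299 lost the call and 2 reversed.

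Replicate numbers are shared between conditions, but the labels do not say that they pair cultures, so the main fit had no block. Deviations of same-numbered cultures correlated at only -0.156 to 0.107. Yet 8 of 15 cultures correlated best with their own number, among 4 uncontrolled or 7 negative feedback candidates. A random pick among so many candidates would match less often, so these values do not settle whether the numbers pair cultures. With the replicate block 0 of the 200 were called in each comparison (0.014, 0.0105 and 0% of all targets called, and in the same order 65, 38 and 25 of the 200 at an unadjusted p under 0.05), and the XR_ share differed by -0.926 points for negative and -1.21 points for paradoxical against uncontrolled (exact permutation over pairs, adjusted p = 0.5 and 0.375, where 4 pairs cannot go below an unadjusted 0.125).

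Depth of 9.91 to 13.2 M counts limits the transcripts at a few CPM, and shared counts limit 132 of the 200.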

Other observations

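The range of a transcript over the 19 libraries, its highest CPM over its lowest, had a median of 5.09 over the 200. It was over 10-fold for 36 and under 3-fold for 41. The following were chosen after their values were seen. The flattest was XR_482452.3, with a range of 1.64-fold, and XR_484047.3 followed at 1.67-fold. The widest were XR_001725330.2 and XR_003483121.1, both with shared counts, and XR_001725330.2 was at 0.0228 CPM in negative feedback culture 2 against 28.8 to 149 CPM in the other libraries. XR_003479154.1, XR_003478575.1, XR_001726850.2, XR_003488867.1 and XR_003490959.1 were at 0 in 1 or 2 libraries each.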
